A study of Mus musculus with 6 samples.

Results

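Imprinted genes are expressed mainly from the copy inherited from one parent. The genes described here are 10 of them, Kcnq1ot1, H19, Igf2, Igf2r, Meg3, Dlk1, Peg3, Ube3a, Plagl1 and Grb10, out of 20204 genes that had a probe of their own on the array. Kcnq1ot1 was chosen by its lower signal in the mutant islets of this same comparison, so its values are a description and carry no test. The other 9 were listed for being imprinted, with results of these arrays already known. A probe was counted as a gene's own when its annotation names that gene and no other, and the probe with the highest mean over the 6 samples stood for the gene. Meg3 had only a probe shared with Dlk1 and is given no value, which leaves 9 genes.

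Expression was measured in islets purified from 3 wild-type and 3 mTR-/-G4 mice, all C57BL/6 males of 15 months on normal housing with free access to food. mTR-/-G4 mice lack the telomerase RNA in every cell and come from the fourth successive generation bred without it, so that their telomeres are short, and the effect of the missing gene cannot be told apart from that of the short telomeres. Each sample was hybridized to 1 Affymetrix Mouse Exon 1.0 ST array and is named by its letter, a, b or c. Values are log2 signals, on which a difference of 1 is a doubling, and a gene was called changed when the fold was above 1.5 and the unadjusted p of limma under 0.05, the threshold of the study. The adjusted p is that of Benjamini and Hochberg over all 34502 probes. No gene of the 20204 had an adjusted p under 0.05 on its brightest probe, while 4471 had an unadjusted p under 0.05, so every call below rests on the unadjusted p. The exact permutation test of 3 against 3 samples, used for marker lists, cannot give a p under 0.1.

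Imprinted genes lie in clusters, and many clusters are controlled by a stretch of DNA methylated on only one parental copy. In some of them that stretch is the promoter of a long RNA that is transcribed from the unmethylated copy and silences neighbouring genes there. Kcnq1ot1 is such an RNA, made from the paternal copy and antisense to the potassium channel gene Kcnq1, and Airn is its counterpart antisense to Igf2r. The arrays measure the sum of both copies, and no parental allele was distinguished.

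Markers of islet cells were bright on all 6 arrays, with a mean over 11 of 12 markers of 11.46, 11.61 and 11.48 in wild-type and 11.39, 11.31 and 11.43 in mTR-/-G4 samples a, b and c (exact p = 0.1), and none of the 11 passed. The acinar markers are genes of the exocrine cells around islets, mostly of digestive enzymes. Their means were 9.22, 8.27 and 8.12 in wild-type against 10.82, 10.28 and 9.85 in mTR-/-G4 samples (exact p = 0.1). Out of 25 listed, 15 of 15 measured ones were higher. Endothelial markers ran from 7.40 to 8.13 against 7.23 to 7.62 (exact p = 0.2), and 3 of 8 (Kdr, Tek and Flt1) were lower. Duct markers ran from 4.40 to 5.15 against 4.87 to 5.48 (exact p = 0.2), with 1 of 4 higher, and stromal markers from 5.85 to 6.60 against 6.00 to 6.50 (exact p = 1.0), with 1 of 10 lower. Of 6 leukocyte markers (5.25 to 5.92 against 5.48 to 5.59, exact p = 1.0) and 3 Schwann cell markers (4.59 to 4.65 against 4.71 to 4.91, exact p = 0.1) none passed. Over all genes, 1.94% were called higher and 1.64% lower. In such bulk samples fewer cells of a type and less RNA per cell cannot be told apart, and the part of cell makeup in the results below was not tested. The array of mTR-/-G4 sample b also had the narrowest spread of signals, an interquartile range of 2.05 against 2.42 to 2.79 on the other 5 arrays.

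Signals of bulk RNA do not measure the output of a promoter, and the cause of the differences below was not tested. The promoters of 4 imprinted genes picked by their signals in this comparison are shown first: Kcnq1ot1 and Airn, lower, and Dlk1 and Nnat, higher. Each is the RefSeq sequence (GRCm38.p6) from 250 bases before to 50 bases after the start of the gene, on the strand of the gene, and capitals mark CCAAT or TGCCGC on either strand. They lie at chr7:143296498-143296797 (minus strand), chr17:12741061-12741360 (plus), chr12:109452573-109452872 (plus) and chr2:157559828-157560127 (plus).
Kcnq1ot1: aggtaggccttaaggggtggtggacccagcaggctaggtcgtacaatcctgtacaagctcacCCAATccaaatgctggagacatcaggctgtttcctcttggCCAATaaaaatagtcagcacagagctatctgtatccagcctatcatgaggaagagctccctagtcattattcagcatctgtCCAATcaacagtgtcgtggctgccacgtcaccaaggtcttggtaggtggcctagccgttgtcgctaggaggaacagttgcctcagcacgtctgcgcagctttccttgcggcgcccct
Airn: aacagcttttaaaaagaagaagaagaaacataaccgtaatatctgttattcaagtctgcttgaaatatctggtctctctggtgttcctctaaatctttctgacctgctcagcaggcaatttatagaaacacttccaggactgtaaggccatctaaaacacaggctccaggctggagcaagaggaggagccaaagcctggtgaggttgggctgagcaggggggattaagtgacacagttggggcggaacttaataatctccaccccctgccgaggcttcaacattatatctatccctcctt
Dlk1: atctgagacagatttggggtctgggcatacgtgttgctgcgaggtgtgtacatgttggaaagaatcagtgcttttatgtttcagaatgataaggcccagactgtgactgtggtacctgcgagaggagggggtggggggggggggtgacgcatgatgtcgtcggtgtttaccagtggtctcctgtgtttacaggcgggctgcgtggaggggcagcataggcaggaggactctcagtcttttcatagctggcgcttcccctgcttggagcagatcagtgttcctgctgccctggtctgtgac
Nnat: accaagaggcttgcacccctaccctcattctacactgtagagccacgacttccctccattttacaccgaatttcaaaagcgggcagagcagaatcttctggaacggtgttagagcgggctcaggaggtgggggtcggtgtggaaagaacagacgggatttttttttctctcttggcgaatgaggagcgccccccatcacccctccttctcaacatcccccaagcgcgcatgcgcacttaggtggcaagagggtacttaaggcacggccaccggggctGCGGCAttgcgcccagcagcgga
In all, 4 motifs were searched on both strands, all picked after the Kcnq1ot1 sequence had been seen. The Kcnq1ot1 window held 3 copies of CCAAT, a motif found in 37.4% of 32851 promoter windows, and the other 3 windows held none. The Nnat window held 1 copy of TGCCGC, found in 11.6% of windows. The Airn window held 1 copy of TATAAA, found in 13.6%. The motif TGACGTCA, found in 1.79%, was in none of the 4 windows. The CpG dinucleotide, the site of DNA methylation, occurred 9 times in the Kcnq1ot1 window, 3 times in that of Airn, 9 times in that of Dlk1 and 17 times in that of Nnat, beside a median of 7 over all windows. These are matches of letters, and methylation was not measured.

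Kcnq1ot1 had 7 own probes. On the brightest, the signal was 9.69, 10.05 and 10.93 in wild-type samples a, b and c and 8.95, 6.89 and 8.28 in the mTR-/-G4 samples. The genotypes did not overlap, and the lowest value was that of mTR-/-G4 sample b. The means of 10.22 ± 0.64 and 8.04 ± 1.1 (SD, n = 3 each) differed by -2.18, a 4.53-fold lower signal.

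The other probes of Kcnq1ot1 gave differences of -1.61, -1.55, -2.09 and -1.89 on the next 4 by mean signal, and of -0.42 and -0.37 on the dimmest pair. All 7 were negative and 5 were past 1.5-fold. Genotypes did not overlap on 5 probes. These 5 include the dimmest probe, at -0.37, and leave out the second, at -1.61. The share of all genes without overlap, by their brightest probe, was 37.2%. It is no yardstick for the probes of a gene chosen by its change. On the second probe mTR-/-G4 sample a, at 6.97, lay above wild-type sample a, at 6.85. Probes that bind parts of one RNA share their samples and are not replicates. Wild-type sample c was the highest of the 6 samples on 6 of the 7 probes.

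**Figure D1:**
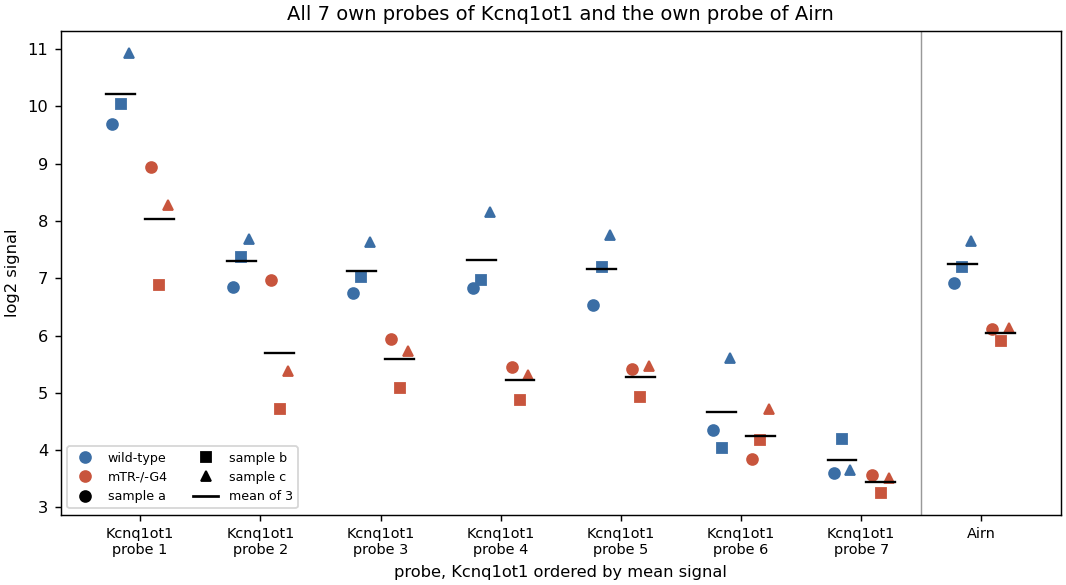
Log2 signal (vertical axis) of each own probe of Kcnq1ot1, ordered by mean signal, and of Airn in every sample, with wild-type in blue, mTR-/-G4 in red and a black line at the mean of 3. On the brightest probe the wild-type samples sit between 9.69 and 10.93 and the mTR-/-G4 samples between 6.89 and 8.95, while the dimmest pair of probes shows differences of only -0.42 and -0.37.

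The genes around Kcnq1ot1 did not pass. Of 11 measured genes of the Kcnq1 domain, 0 were called higher and 0 lower, where 1.94% and 1.64% of all genes were. An unadjusted p under 0.05 was reached by 0 of the 11, beside 4471 of the 20204 genes. The differences of the 11 ran from -0.28 to 0.29 with a median of 0.16, against a median of 0.10 over all genes. Kcnq1, Cdkn1c, Phlda2, Slc22a18, Ascl2 and Tspan32 were dim, with means in both genotypes below 5.14, the median of all probe means. In 4 equal groups of all genes by mean signal, the dimmest had a median difference of 0.24 and the next 0.18. Whether low signal hid a change of these dim genes was not tested. Kcnq1 itself had 5.05, 4.86 and 4.62 in wild-type and 5.12, 4.84 and 4.68 in mTR-/-G4 samples, a difference of 0.04 with a 95% interval of -0.34 to 0.42 (adjusted p = 0.885 by limma), and its sign turned in some alternative settings (-0.18 to 0.14). Cdkn1c, an inhibitor of the cell cycle that is expressed from the maternal copy, had 4.98, 4.82 and 4.95 against 5.04, 5.11 and 5.07, a difference of 0.16 with an interval of -0.07 to 0.39 (adjusted p = 0.318 by limma). Genotypes did not overlap for 5 of the 11 genes, Cdkn1c, Slc22a18, Ascl2, Tssc4 and Nap1l4, beside 37.2% of all genes.

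Of the remaining genes of the domain, Ascl2, a transcription factor of the trophoblast, had the highest difference, 0.29 (interval -0.03 to 0.60), and Tssc4 the lowest, -0.28 (interval -0.66 to 0.10). Phlda2, which limits placental growth, differed by 0.17, the transporter gene Slc22a18 by 0.24, Tspan32 by 0.25, the channel gene Trpm5 by 0.17 and Osbpl5 by 0.13. Cd81, a membrane protein gene and the brightest of the domain, differed by -0.05 (interval -0.48 to 0.39) and the histone chaperone gene Nap1l4 by -0.24 (interval -0.50 to 0.03). Every interval of the 11 included 0, and differences up to its ends remain compatible with the data. With 3 samples per genotype this does not show that these genes were unchanged.

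**Figure D2:**
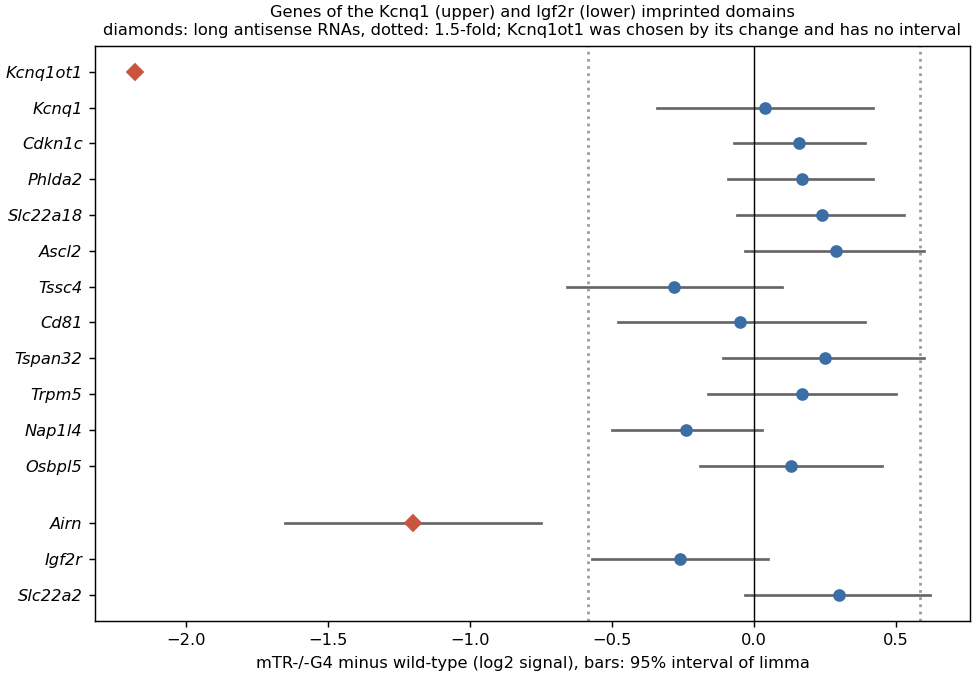
Differences in log2 signal (horizontal axis, mTR-/-G4 minus wild-type, n = 3 each) of the genes of the Kcnq1 domain, upper, and of the Igf2r domain, lower, with 95% intervals of limma and dotted lines at 1.5-fold. The 11 neighbours of Kcnq1ot1 lie between -0.28 and 0.29, against -2.18 for Kcnq1ot1, which was chosen by its change and has no interval, and -1.20 for Airn.

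Igf2r encodes the receptor that takes up and clears insulin-like growth factor 2, and is expressed from the maternal copy in most mouse tissues. Its signal was 9.16, 9.26 and 9.01 in wild-type and 8.73, 8.84 and 9.08 in mTR-/-G4 samples. The genotypes overlapped, with a difference of -0.26 (SE 0.13, interval -0.57 to 0.05, adjusted p = 0.254 by limma). Airn, the RNA antisense to Igf2r, was lower. It had 6.92, 7.19 and 7.65 in wild-type and 6.11, 5.91 and 6.13 in mTR-/-G4 samples, which did not overlap, and fell by 1.20 on the log2 scale (SE 0.19, 2.3-fold, adjusted p = 0.0929 by limma). Airn has 1 own probe, and its call held in 15 of 15 alternative settings, with differences from -1.37 to -1.0. Slc22a2, a transporter gene of the same domain named after its value was seen, differed by 0.30 (adjusted p = 0.234 by limma), and Slc22a3 had no own probe. The positions of the probes were not used, so whether those of Airn or Kcnq1ot1 overlap exons on the opposite strand was not checked.

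Igf2, a growth factor gene expressed from the paternal copy, and H19, a long RNA expressed from the maternal copy beside it, share one control region. Igf2 had 6.17, 6.13 and 5.87 in wild-type and 6.74, 6.42 and 6.50 in mTR-/-G4 samples, with no overlap. The difference of 0.50 (SE 0.13, adjusted p = 0.142 by limma) passed on the unadjusted p but is 1.41-fold, short of the fold threshold. H19 was dim, at 4.20, 4.17 and 4.24 against 4.38, 4.78 and 4.30, a difference of 0.28 (interval -0.06 to 0.62, adjusted p = 0.263 by limma). Igf2os, an antisense RNA of Igf2, differed by 0.37 (adjusted p = 0.185 by limma), 1.3-fold, and was short of the fold threshold too. All 3 genes of the cluster thus had positive differences, as did 12819 of the 20204 genes.

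Dlk1, a membrane protein of the Delta family expressed from the paternal copy, was the only one of the 8 tested genes to pass. Its signal was 5.54, 5.01 and 5.17 in wild-type and 5.87, 6.29 and 5.72 in mTR-/-G4 samples. The genotypes did not overlap, though wild-type sample a and mTR-/-G4 sample c lay close together. Dlk1 rose by 0.72 (SE 0.20, 1.65-fold, adjusted p = 0.143 by limma). Without mTR-/-G4 sample b, the highest for Dlk1, the difference was 0.55 and below 1.5-fold, and with array weights it was 0.49. In the same domain, and named after their values were seen, Dio3, which inactivates thyroid hormone, differed by 0.22 (adjusted p = 0.24 by limma) and Rtl1, a retrotransposon-derived gene, by -0.42 (adjusted p = 0.304). The 4 probes of Rtl1 ran from -0.42, on the brightest, to 0.48, and 2 were negative. Rian, a long RNA of the maternal copy, had 4 probes from -0.64 to 0.07. Its brightest differed by -0.02, and the one at -0.64 (adjusted p = 0.186 by limma) passed, a probe named after its value was seen.

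Peg3, a zinc finger protein of the paternal copy, had 6 probes, all with negative differences, from -0.38 to -0.15. On the brightest it had 11.93, 11.97 and 11.97 in wild-type and 11.87, 11.43 and 11.53 in mTR-/-G4 samples, a difference of -0.35 (SE 0.13, 1.27-fold, adjusted p = 0.198 by limma) that passed on the unadjusted p and not on the fold. Ube3a, a ubiquitin ligase expressed from the maternal copy in neurons, had 6.84, 7.01 and 7.14 against 6.76, 6.47 and 6.60, with no overlap and a difference of -0.39 (SE 0.13, 1.31-fold, adjusted p = 0.173 by limma), also short on the fold alone. Plagl1, a zinc finger transcription factor, had 6.12, 6.31 and 6.00 against 6.31, 6.33 and 6.53, a difference of 0.25 (interval -0.05 to 0.54, adjusted p = 0.255 by limma). Grb10, an adaptor that inhibits signalling of the insulin and IGF1 receptors, had 6.21, 6.45 and 6.38 against 6.32, 6.00 and 6.06, a difference of -0.22 (interval -0.52 to 0.08, adjusted p = 0.298 by limma). The 2 genotypes overlapped for both.

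**Figure D3:**
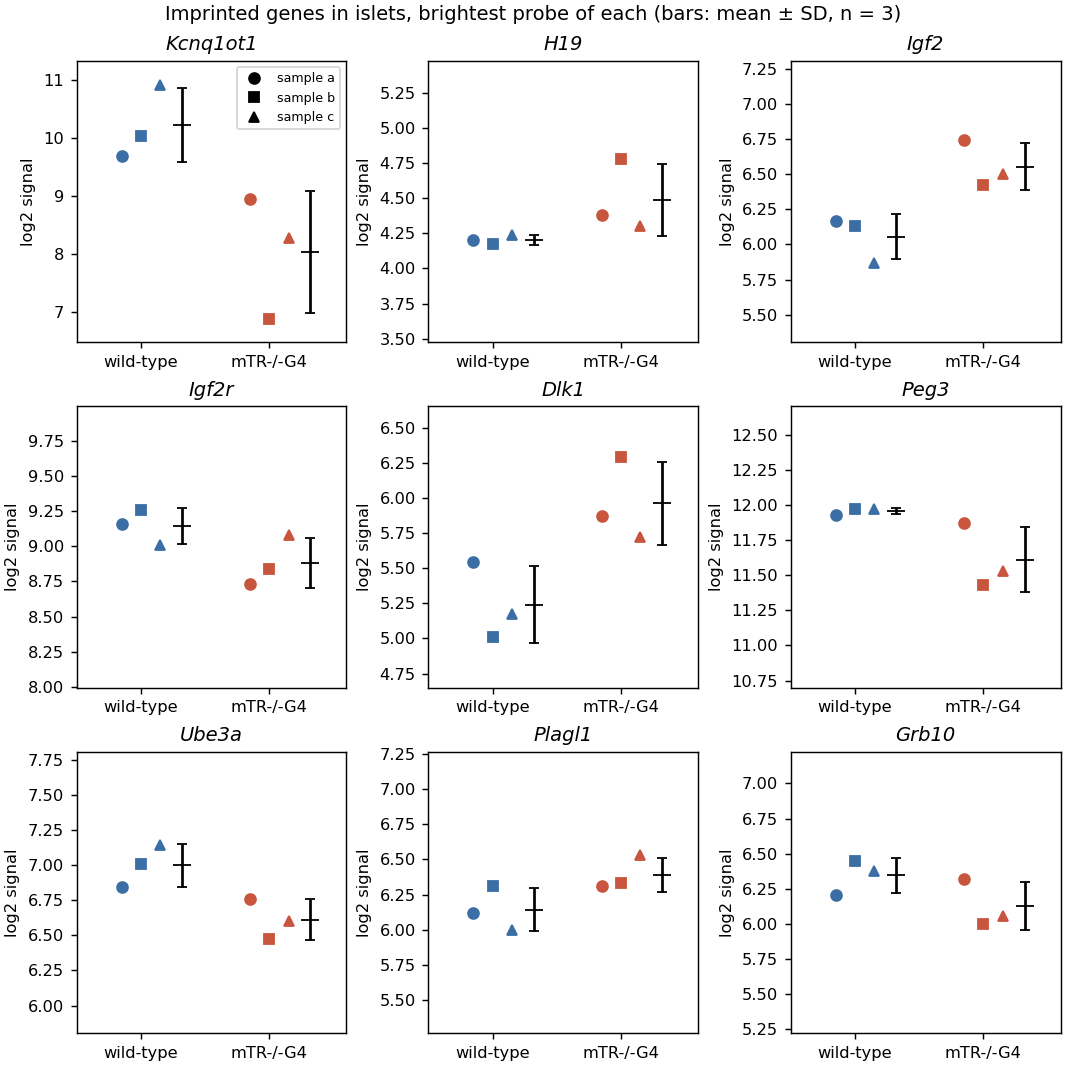
Log2 signal (vertical axes, at different levels) of the 9 measured imprinted genes in each sample, with wild-type in blue, mTR-/-G4 in red and bars at the mean ± SD of 3 samples. Kcnq1ot1 spans 6.89 to 10.93, and Dlk1 is higher in the 3 mTR-/-G4 samples (5.72 to 6.29) than in the wild-type ones (5.01 to 5.54).

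Of the 8 tested genes, 1 was called higher, where 1.94% of all genes were, and 0 lower, where 1.64% were. Of them, 5 had genotypes that did not overlap, beside 37.2% of all genes. An unadjusted p under 0.05 was reached by 4, beside 4471 of the 20204 genes. The median difference of the 8 was 0.01, against 0.10 over all genes.

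A wider list of 58 other imprinted genes had 47 with an own probe, and 1 of them was higher, 1 lower and 45 did not pass. Over all genes, 1.94% were higher and 1.64% lower. Of the 47, 8 had an unadjusted p under 0.05, beside 4471 of the 20204 genes. Genotypes that did not overlap were found for 20, beside the same 37.2% of all genes. The lower gene was Airn. The higher one was Nnat, which encodes neuronatin, a small membrane protein of neurons and beta cells expressed from the paternal copy. Its brightest probe had 6.25, 6.89 and 6.39 in wild-type and 7.23, 7.35 and 7.12 in mTR-/-G4 samples, with no overlap, and rose by 0.72 (SE 0.18, 1.65-fold, adjusted p = 0.129 by limma). A second probe gave 0.79 (adjusted p = 0.0995 by limma). With array weights the difference of the first was 0.58, below 1.5-fold.

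Peg10, a retrotransposon-derived gene of the paternal copy, is named after its values were seen, as its probes differ in the call. The brightest had 9.53, 9.13 and 8.18 against 10.46, 9.22 and 9.61, which overlap, with a difference of 0.82 (SE 0.42, adjusted p = 0.261 by limma), and the other gave 0.87 (adjusted p = 0.198), which passed. Gnas, the gene of the stimulatory G protein and the brightest of the list, differed by -0.21 (adjusted p = 0.391 by limma). Of the Ube3a-Snrpn domain 0 of 6 measured genes passed, with differences of 0.05 to 0.32, the latter that of Ndn, a gene of neurons and the brightest there. Of the Peg3 domain 0 of 2 passed, and the brighter, the ubiquitin protease gene Usp29, differed by -0.56. The 3 probes of Usp29 ran from -0.79 to 0.19. Ddc, a decarboxylase gene beside Grb10, differed by -0.33 and did not pass. The median of the 47 was 0.15, against 0.10 over all genes. It moved with signal: of 19 genes dimmer than the median probe 18 had positive differences (median 0.23), and of the 28 brighter ones 10 (median -0.06). Over all genes the median difference in 4 equal groups by mean signal was 0.24, 0.18, -0.04 and -0.10 from the dimmest to the brightest, so a small positive difference of a dim gene is what most dim genes showed.

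**Figure D4:**
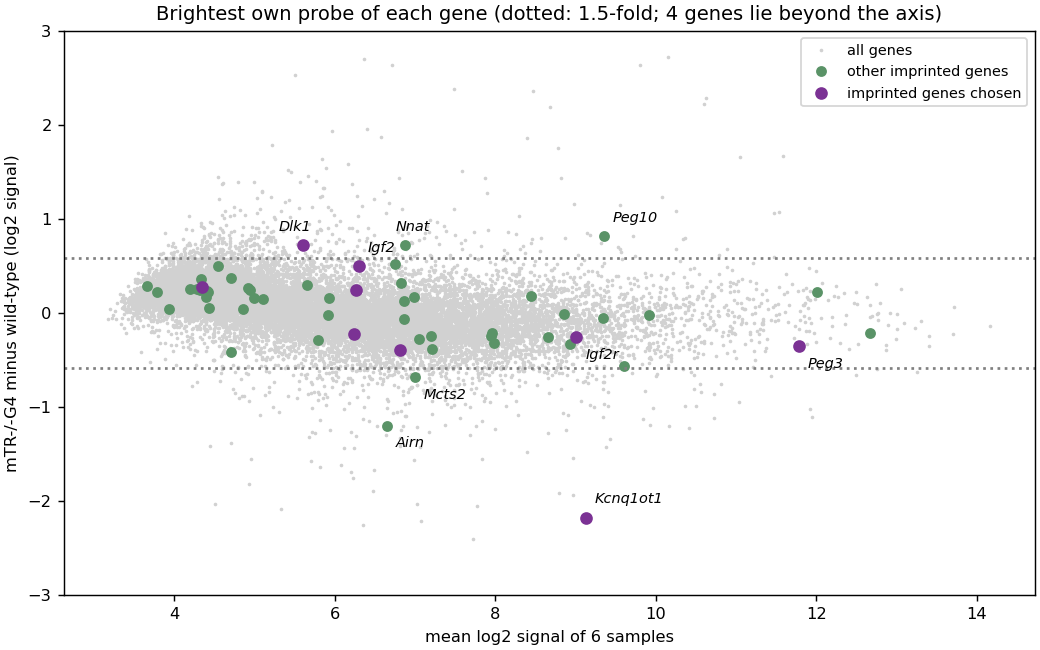
Difference between genotypes (vertical axis, mTR-/-G4 minus wild-type, log2 signal) against mean log2 signal of the 6 samples (horizontal axis) for the brightest own probe of all 20204 genes in grey, with the imprinted genes in purple (the 9 measured) and green (the 47 others). Kcnq1ot1 at -2.18 and Airn at -1.20 lie below the dotted 1.5-fold line and Dlk1 and Nnat, both at 0.72, above it. The 4 genes beyond the axis are not drawn.

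The enzymes and proteins that set or read imprints did not pass: 0 of 20 were called higher or lower, where 1.94% and 1.64% of all genes were. Of the 20, 4 had an unadjusted p under 0.05, beside 4471 of the 20204 genes. Dnmt3a, the DNA methyltransferase that sets imprints in germ cells, is named after its values were seen and had 7.13, 7.34 and 7.52 in wild-type and 6.79, 6.72 and 6.85 in mTR-/-G4 samples, a difference of -0.54 (1.46-fold, adjusted p = 0.121 by limma). It was past 1.5-fold with each array centred on its median (-0.64) and without wild-type sample a (-0.65). Smchd1, also named after its values were seen, had the largest difference of the list, -0.65 on its brightest probe (1.57-fold, adjusted p = 0.231 by limma). It did not pass on the unadjusted p, and its other probe gave -0.26 (adjusted p = 0.193 by limma). Trim28, a corepressor and the brightest of the list, differed by -0.04. In the insulin-like growth factor system, beside the same shares of all genes, 1 of 15 genes was lower and 0 were higher. This was the insulin receptor gene Insr, at 7.77, 7.93 and 7.86 against 7.42, 6.94 and 7.31, which fell by 0.63 (SE 0.14, 1.55-fold, adjusted p = 0.12 by limma) and fell short of 1.5-fold without mTR-/-G4 sample b (-0.49). Igfbp7, the brightest of that system, differed by 0.03. Of 8 long nuclear RNAs, beside the same shares again, 1 was lower and 0 were higher. Malat1, the brightest of them, had 13.09, 12.88 and 13.19 against 12.74, 12.12 and 12.52 and fell by 0.60 (SE 0.18, 1.51-fold, adjusted p = 0.157 by limma), but lost the call without wild-type sample a (-0.58), without wild-type sample c (-0.53) or without mTR-/-G4 sample b (-0.42).

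Of 11034 genes brighter than the median probe, the 5 whose signal ran most like that of Kcnq1ot1 over the 6 samples were Nemf (Pearson r 0.999), Pds5a (0.999), Slc25a27 (0.998), Edem3 (0.998) and Gpatch8 (0.998). Their differences between genotypes were smaller, from -0.68 for Nemf to -0.31 for Pds5a. With 6 samples from 2 genotypes such values are common, as 1520 genes had an r above 0.9 and 83 above 0.99, and they are given as a description.

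**Figure D5:**
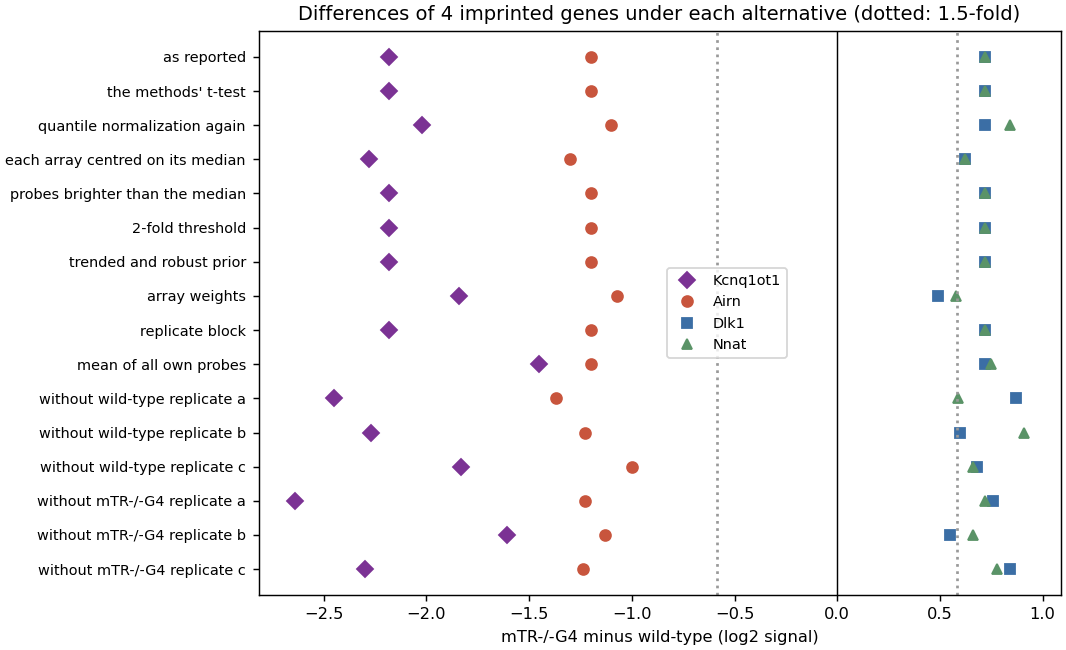
Differences in log2 signal (horizontal axis, mTR-/-G4 minus wild-type) of Kcnq1ot1, Airn, Dlk1 and Nnat as reported and under each alternative setting (rows), with dotted lines at 1.5-fold. Airn stays between -1.37 and -1.0 and Kcnq1ot1 between -2.64 and -1.45, while Dlk1 (0.49 to 0.87) and Nnat (0.58 to 0.91) cross the upper dotted line.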

How the data were processed

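Total RNA of islets, purified with collagenase, was amplified with random primers and hybridized to 1 array per sample. The authors normalized the 6 arrays together by Robust Multichip Analysis in Partek (version not given in the sources used here) and the table they deposited gives log2 signals of 34502 transcript clusters, here named probes. Build mm9 is given in the submitters' processing notes; probe coordinates were not used. Of the probes, 25362 have 1 gene symbol, 2238 several and 6902 none listed. A sample was treated as 1 mouse, after the study's own count of 3 mice per genotype; the labels do not say so.

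The 3 mTR-/-G4 samples were set against the 3 wild-type samples in an unpaired linear model with moderated variances (limma 3.58.1 in R 4.3.3), and all probes were kept; the script was first tested on simulated data. Marker lists were compared by two-sided exact permutation of their mean signal. The genes and lists were chosen with earlier results of these data known. Named are the 10 genes, all of the Kcnq1 domain, and of other lists the genes that passed and the brightest. Slc22a2, Dio3, Rtl1, Peg10, Dnmt3a, Smchd1, a second probe of Rian and genes in the account of the alternatives fall outside this rule. They were chosen after their values were seen. Counts of the 10 leave out Kcnq1ot1, whose change chose it. The alternatives were 9 other settings and each sample left out in turn. For single genes other than the 10 they were added after the data were seen. With 3 arrays per genotype the number of arrays limits the precision.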

Additional observations from a re-analysis of the deposited data

How the results depend on the processing

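Among the 8 tested genes the count called higher was 1 (Dlk1) in 12 of 15 alternatives and 0 with a 2-fold threshold, with array weights and without mTR-/-G4 sample b, so it ran from 0 to 1 when each sample was left out; the count called lower was 0 in all 15. In the wider list the count called higher was 2 with quantile normalization again, with the replicate block and with the mean of all own probes (Peg10 beside Nnat each time), 0 with a 2-fold threshold and with array weights, and 1 to 2 with each sample left out (2 without wild-type sample a or mTR-/-G4 sample c). The count called lower was 2 with quantile normalization again (Airn and Rtl1), with array weights and with the replicate block (Airn and Mcts2), and 1 to 3 with each sample left out (3 without wild-type sample a, 2 without wild-type sample b, mTR-/-G4 sample a or mTR-/-G4 sample b). Airn was in every one of these counts. The cause of these changes was not tested. With the replicate block the members stayed at 1 higher and 0 lower; the sample letters share only a name, as same-letter deviations from the genotype means correlated at 0.0429 (a), -0.16 (b) and 0.112 (c). Of 37 single genes, 8 changed sign under some alternative, none of them past the threshold as reported: after quantile normalization again Kcnq1 was at -0.14, Phlda2 at -0.06, Cd81 at 0.06, Rian at 0.14 and Trim28 at 0.09; with each array centred on its median Kcnq1 at -0.06 and Igfbp7 at -0.07; with array weights Kcnq1 at -0.18, Gnas at 0.05 and Igfbp7 at -0.05; with the mean of all own probes Rtl1 at 0.03; and with each sample left out Kcnq1 ran from -0.08 to 0.14 (below 0 without wild-type sample c or mTR-/-G4 sample a), Cd81 from -0.22 to 0.05 (above 0 without wild-type sample a, wild-type sample b or mTR-/-G4 sample b) and Igfbp7 from -0.10 to 0.10 (below 0 without wild-type sample c). Of the marker lists, the duct mean difference of 0.40 ran from 0.20 (without wild-type sample c) to 0.58 (without wild-type sample a), the endothelial one of -0.39 from -0.57 (without wild-type sample c) to -0.20 (without wild-type sample a), the stromal one of -0.03 ran from -0.24 to 0.14 and the leukocyte one of 0.01 from -0.12 to 0.22 with each sample left out. Kcnq1ot1 was at -1.45 with the mean of its 7 probes, the setting that moved it most towards 0, and at -1.61 without mTR-/-G4 sample b. Insr kept its call in 11 and Malat1 in 9 of 15 alternatives; both lost it with quantile normalization again (-0.50 and -0.45). The median difference over all probes was 0.105, and 0.007 with each array centred on its median and 0.015 after quantile normalization. The iteration that estimates the array weights stopped before it converged. The acinar difference of 1.78 ran from 1.53 to 2.12 with each sample left out.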
